A study of Homo sapiens with 2 samples.

Results

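The 10 transcription factor genes described here direct the development and effector program of natural killer (NK) cells and were chosen by name as factors of that lineage. They are TBX21, EOMES, ID2, NFIL3, TOX, PRDM1, IKZF1, IKZF3, ETS1 and ZEB2, 10 of the 46427 genes listed for the RNA libraries of NK92, an established human NK cell line. Both libraries were prepared from poly(A) RNA with a stranded kit after 18 h of culture in medium with human serum and division of the cells into separate plates. The unexposed library came from cells kept without antibody, and the exposed library from cells given 10 µg/mL of PPMX-T003, an antibody that blocks the transferrin receptor TfR1, for 6 h. The study used these libraries to compare the response to TfR1 blockade with that to known compounds. The columns of the deposited table are named for 0 h and 6 h, although the methods describe the same further culture for both plates, so that exposure and a possible difference in harvest time cannot be told apart. In all, 46766416 counts were deposited for unexposed and 43178462 for exposed cells. Each condition has 1 library, so no difference has a replicate check and no p-value is given.

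In NK cell development, NFIL3, ID2, TOX and ETS1 act early, at the steps that commit a progenitor to innate lymphoid and NK fates. The T-box factors T-bet (TBX21) and Eomes (EOMES) then install the cytotoxic program, and ZEB2, Blimp-1 (PRDM1) and the zinc finger proteins Ikaros (IKZF1) and Aiolos (IKZF3) shape later maturation. ID2 acts without binding DNA, by capturing E proteins, whereas the others bind DNA themselves.

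All 10 factors were expressed in both libraries, and their order by level was the same. On the deposited TPM scale (transcripts relative to library total), which corrects for transcript length and is rounded to whole numbers, ID2 was highest, with 477 TPM without and 483 TPM with PPMX-T003. It was followed by TBX21, ETS1, IKZF3, TOX, EOMES, NFIL3, PRDM1 and IKZF1, and ZEB2 was lowest, with 6 TPM without and 5 TPM with the antibody. The levels thus covered a wide range within the set, while each gene stayed close to its own level. The nearest neighbours in this order were TBX21 and ETS1 in the unexposed library, 1.05-fold apart, and TOX and EOMES, 1.10-fold apart there and 1.09-fold apart in the exposed library. Without replicates it cannot be said whether such neighbours differ. Together the 10 genes took 0.236% of all counts in either library, and their summed level was 1483 TPM without and 1493 TPM with PPMX-T003. The summed level of the set was therefore nearly the same in both libraries. In bulk RNA, fewer cells of a type and less RNA per cell cannot be told apart.

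**Figure D1:**
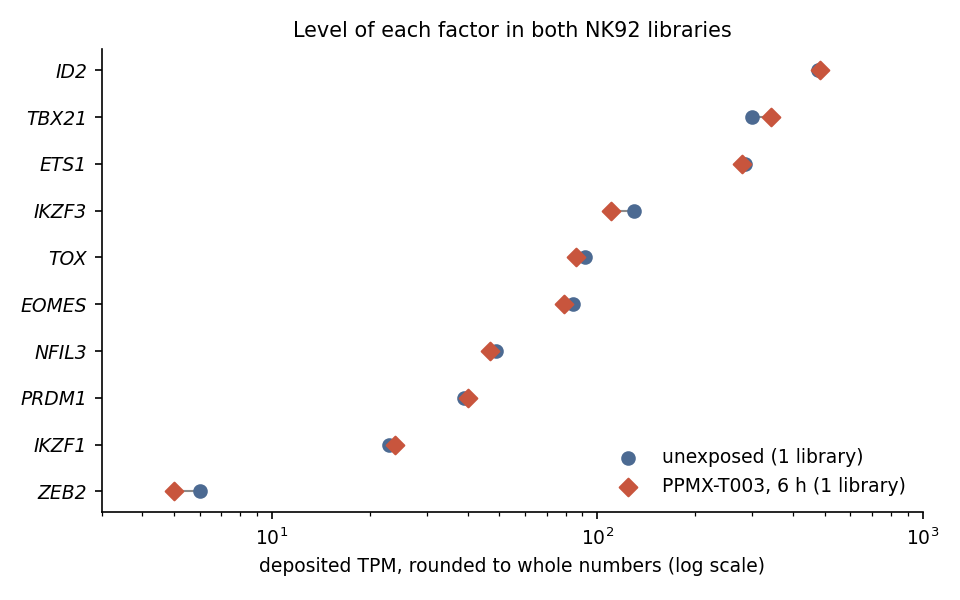
Level of each NK lineage factor in the unexposed library (circles) and the exposed library (diamonds), as deposited TPM on a log axis, 1 library per condition. ID2 is highest at 477 and 483 TPM and ZEB2 lowest at 6 and 5 TPM, and the order of the genes is the same in both.

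TBX21 was higher and IKZF3 lower with the antibody, both by less than 2-fold, and the calls of several other factors depended on a fit on GC content and transcript length. Changes were measured as log2 fold changes of CPM (counts relative to library total) after scaling of the libraries, with a 95% Clopper-Pearson interval that covers counting error only and compares the libraries, not the conditions. This interval lay above 0 for 2 factors, TBX21 and ID2, below 0 for 2 factors, IKZF3 and ZEB2, and held 0 for the other 6. Among the 13665 genes with at least 20 counts over both libraries, it lay above 0 for 21.8% and below 0 for 23.9%. Among the 8359 genes with at least 1000 counts, a limit that all 10 factors pass, these shares were 27.7% and 32.2%. Before the fit described below, the counts for the factors were thus no larger than those shares of all genes, while after it 5 factors lay above 0, against 21.9% of genes, and 4 with the longest transcripts, against 19.6%. None of the 10 passed 2-fold in either direction, against 1.27% of tested genes higher and 1.38% lower, and 0.0359% and 0.0239% (3 and 2 genes) of those with at least 1000 counts. The median log2 fold change was -0.0032 for the 10 factors and -0.0022 for all tested genes.

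**Figure D2:**
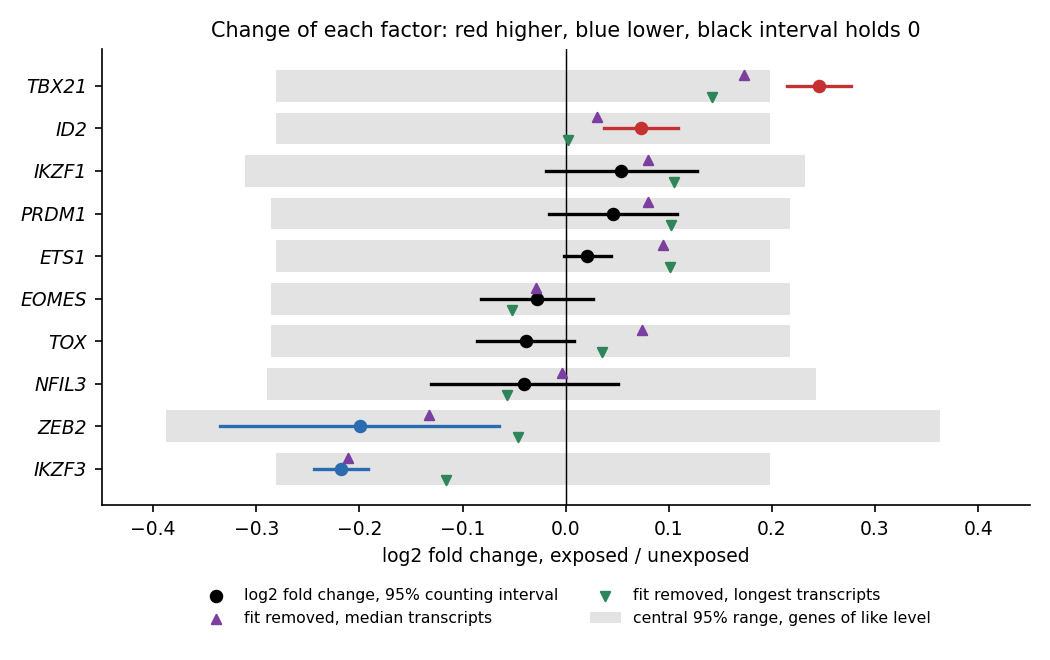
Log2 fold change (exposed over unexposed) of each factor, with the 95% counting interval as a line, the central 95% range of genes of like level as a grey bar, and the value after removal of a fit on GC content and transcript length as triangles (median or longest transcripts). TBX21, at 0.25, lies above the range of its level (-0.28 to 0.20), and IKZF3, at -0.22, lies inside it.

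T-bet, encoded by TBX21 (NCBI Gene ID 30009, chr17:47733236-47746122 on GRCh38.p14), activates genes of cytotoxicity and interferon-γ. TBX21 had 16085 counts without and 17584 with PPMX-T003, or 344 and 408 CPM. This gave a log2 fold change of 0.25 (interval 0.21 to 0.28), a rise of 18.6%. This was the largest rise in the set, and only 0.952% of the genes of like level, the tenth of tested genes with the highest counts, rose more. Its transcript has a GC content of 59.7%, and the tenth of genes with like GC content had a median of 0.096. When a fit of all genes' changes on GC content and transcript length was removed, the change of TBX21 was 0.17 (interval 0.14 to 0.20), inside the range of genes of like level before the fit. With the longest transcripts in the fit it was 0.14 (0.11 to 0.17), still above 0.

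Eomes, encoded by EOMES (8320, chr3:27715953-27722713), is the T-box paralog of T-bet. EOMES had 5712 counts without and 5167 with the antibody, or 122 and 120 CPM. The log2 fold change of EOMES was -0.028 (interval -0.082 to 0.027), so that no difference was detectable at this depth. The ratio of TBX21 to EOMES on the TPM scale went from 3.56 to 4.32. The log2 change of their count ratio was 0.27 (Woolf interval 0.21 to 0.34), and 0.20 (0.14 to 0.26) after removal of the fit. The T-box pair thus shifted towards TBX21 in the exposed library. This ratio and those given below were chosen after the values were seen.

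The start region of TBX21 is shown because its change, before the fit, was the one outside the range of genes of like level. It is the 250 bases before the RefSeq start, chr17:47732986-47733235 on GRCh38.p14, 5′ to 3′ on the plus strand, and no annotated exon of TBX21 lies in it.
TBX21: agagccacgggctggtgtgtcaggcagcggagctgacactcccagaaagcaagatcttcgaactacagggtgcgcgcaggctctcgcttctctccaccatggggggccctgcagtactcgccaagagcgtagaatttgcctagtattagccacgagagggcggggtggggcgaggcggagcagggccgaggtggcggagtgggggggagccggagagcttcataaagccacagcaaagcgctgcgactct
It is in lower case throughout because none of the 7 motifs searched was found in it. RefSeq start regions were given for 7 of the 10 factors and not for TOX, IKZF3 and ETS1, and some have several starts, 11 windows in all. The core GGAA, which ETS factors bind, was searched on both strands and found in 10 of these 11 windows. The window of TBX21 held 0 cores, against 12 in that of EOMES, 4 in that of ID2 and 2 in that of ZEB2. Unlike that of TBX21, these windows overlap annotated exons, with 250, 202 and 250 of their 250 bases, so they are not like regions. Of 34961 such windows of RefSeq genes, 92.7% held at least 1, with a median of 3. The E-box CANNTG, which E proteins bind and which includes the ZEB site CACCTG, was searched in the same way. This motif was found in 7 of the 11 windows, those of EOMES, ID2, PRDM1 and ZEB2 and some of IKZF1, and not in those of TBX21 and NFIL3, while 61.8% of all windows held it. The ZEB site itself was found in 2 of the 11, for EOMES and PRDM1 (17.5% of all windows). The Ikaros core TGGGAA, which contains the ETS core, was found in 3 of the 11, for NFIL3, IKZF1 and ZEB2 (20.8%). No window of these 7 genes held the T-box core TCACAC (9.91% of all windows), the NFIL3 site TTANGTAA (1.99%) or the Blimp-1 core GAAAGT (11.4%). A match describes the letters of a window and not binding, which was not measured.

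Among the factors of early NK commitment, ID2 was slightly higher before the fit, where the intervals of NFIL3, TOX and ETS1 held 0. In both fits ID2 held 0 and ETS1 lay above 0. ID2 (3398, chr2:8682056-8684461), the inhibitor of E proteins, had 12908 counts without and 12521 with PPMX-T003, or 276 and 290 CPM. For ID2 the log2 fold change was 0.073 (interval 0.038 to 0.11), inside the range of genes of like level. Once the fit was removed it was 0.030 (-0.0052 to 0.066), so the interval then held 0, as it did with the longest transcripts (0.0020, -0.034 to 0.038). The E protein genes TCF3, TCF4 and TCF12 together went from 121 to 112 TPM, and the ratio of ID2 to their sum went from 3.94 to 4.31. The log2 change of the count ratio was 0.14 (Woolf interval 0.091 to 0.19). Within that sum, TCF12 was lower, with 4918 and 4104 counts (log2 fold change -0.14, interval -0.20 to -0.084), while the intervals of TCF3 and TCF4 held 0. With the fit removed TCF12 was at -0.10 (-0.16 to -0.043), and with the longest transcripts its interval held 0 (-0.038, -0.098 to 0.022). TCF3 then lay below 0 in both fits (-0.12 and -0.095). Which gene of this ratio moved thus depends on the fit.

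NFIL3 (4783, chr9:91409045-91483497), a basic leucine zipper factor needed for NK progenitors, had 2091 and 1875 counts, or 44.7 CPM without and 43.5 CPM with the antibody. NFIL3 thus had a log2 fold change of -0.040 (interval -0.13 to 0.050). TOX (9760), an HMG box protein of lymphoid development, had 7741 counts without and 6949 with PPMX-T003, or 165 and 161 CPM. TOX had a log2 fold change of -0.039 (-0.086 to 0.0083). No difference was detectable for either gene at this depth. TOX has the lowest GC content of the set, 41.2%, where the tenth of genes with like GC content had a median of -0.093, and after removal of the fit it was at 0.074 (0.027 to 0.12). With the longest transcripts in the fit, its interval held 0 again (0.036, -0.011 to 0.083), so no direction is given for TOX. Against its relative TOX2, which was higher in level at 165 and 148 TPM and fell by 0.12 on the log2 scale, TOX rose by 0.086 as a count ratio (Woolf interval 0.021 to 0.15). This ratio changed by 0.27 after removal of the fit and by 0.25 with the longest transcripts.

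ETS1 (2113, chr11:128458765-128587558), the founding ETS factor and an activator of NK differentiation genes, had the most counts of the set, 31007 without and 29012 with PPMX-T003, or 663 and 672 CPM. Its log2 fold change was 0.021, and its interval, -0.0020 to 0.044, was the narrowest of the 10. The interval of ETS1 held 0 narrowly, and with upper-quartile scaling (0.033) it did not. ETS1, after removal of the fit, was at 0.094 (0.071 to 0.12), and with the longest transcripts at 0.10 (0.078 to 0.12), above 0 in both. Its GC content was 43.8%.

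Log2 fold changes of all genes followed GC content. The median was -0.13 in the tenth with the lowest GC content (31.0% to 40.0%) and 0.12 in the tenth with the highest (61.7% to 80.6%). The plot of changes against GC content shows that TBX21, ID2, IKZF1, PRDM1, TOX and ETS1 lay above the line of their group, EOMES, IKZF3 and ZEB2 lay below it, and NFIL3 lay on it. After removal of the fit, intervals lay above 0 for 5 factors (TBX21, TOX, PRDM1, IKZF1 and ETS1) and below 0 for 1 (IKZF3). With the longest transcripts these were 4 (without TOX) and 1. Of the 8297 genes with at least 1000 counts and a fitted value, 21.9% lay above 0 and 27.0% below 0 after the fit, and 19.6% and 26.2% with the longest transcripts. The difference of the factors from these shares was not tested. TBX21 and IKZF3 therefore kept their direction and their interval outside 0 in both fits, and ID2 and ZEB2 did not keep an interval outside 0.

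Of the Ikaros family, IKZF3 was lower with PPMX-T003 and IKZF1 was not. Aiolos, encoded by IKZF3 (22806, chr17:39757715-39864312), had 26369 counts without and 20907 with the antibody, or 563 and 485 CPM. Its log2 fold change was -0.22 (interval -0.24 to -0.19), and its level fell by 14.0%. This was the largest fall in the set, and 5.78% of genes of like level fell more, so that it lay inside their central range of -0.28 to 0.20. After removal of the fit it was -0.21 (-0.24 to -0.18). With the longest transcripts it was -0.12 (-0.14 to -0.089), the longest of IKZF3 having 9787 bases and the median one 1552. Without the antibody IKZF3 had more counts than TBX21 (26369 against 16085) but a lower TPM (130 against 299). The length behind its TPM was therefore greater than that of TBX21, whose transcript has 2572 bases. The median length of IKZF3 is thus too short for it, which limits the value of -0.21. Ikaros, encoded by IKZF1 (10320, chr7:50303455-50405101), had 3084 and 2952 counts, or 65.9 CPM without and 68.4 CPM with PPMX-T003. IKZF1 had a log2 fold change of 0.054 (-0.019 to 0.13), not a detectable difference before the fit. With the fit removed it was 0.080 (0.0068 to 0.15), and 0.10 (0.032 to 0.18) with the longest transcripts, both above 0.

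The ratio of IKZF1 to IKZF3 was 0.177 without and 0.218 with PPMX-T003 on the TPM scale. The log2 change of the count ratio was 0.27 (Woolf interval 0.19 to 0.35), and 0.22 (0.14 to 0.30) after removal of the fit with the longest transcripts. The ratio of IKZF1 to IKZF3 was thus higher in the exposed library. Helios, encoded by IKZF2, was also lower, with 13394 and 10326 counts (log2 fold change -0.26, interval -0.30 to -0.22). Its ratio to IKZF3 changed by -0.040 (-0.086 to 0.0049), an interval that holds 0. IKZF4 (-0.28, -0.50 to -0.064) and IKZF5 (-0.14, -0.24 to -0.045) had intervals below 0 as well. Without the fitted trend IKZF2 was at -0.17, IKZF4 at -0.27 and IKZF5 at 0.023, and with the longest transcripts at -0.079, -0.26 and -0.018. The interval of IKZF5 held 0 in both fits (-0.074 to 0.12 and -0.12 to 0.079), so its call as lower was lost.

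The remaining factors, PRDM1 and ZEB2, encode transcriptional repressors and were among the lower expressed. Blimp-1, encoded by PRDM1 (639, chr6:105992690-106109938), had 4302 counts without and 4094 with PPMX-T003, or 91.9 and 94.9 CPM. Its log2 fold change was 0.045 (interval -0.017 to 0.11), not a detectable difference before the fit. After it PRDM1 was at 0.080 (0.018 to 0.14), and with the longest transcripts at 0.10 (0.040 to 0.16), both above 0. ZEB2 (9839, chr2:144384081-144520119) had 1004 and 806 counts, or 21.5 CPM without and 18.7 CPM with the antibody. Its log2 fold change was -0.20 (-0.34 to -0.065), well inside the range of -0.39 to 0.36 of genes of like level. After removal of the fit the change of ZEB2 was -0.13 with an interval that just held 0 (-0.27 to 0.0022), and with the longest transcripts it was -0.046 (-0.18 to 0.088). Its relative ZEB1 had 798 and 577 counts (-0.35, -0.51 to -0.19), and the count ratio of ZEB2 to ZEB1 changed by 0.15 (Woolf interval -0.053 to 0.36), which holds 0. Without the fitted trend ZEB1 stayed below 0, at -0.26 (-0.42 to -0.11) and, with the longest transcripts, at -0.22 (-0.38 to -0.068), so that of this pair only ZEB1 kept its call as lower.

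**Figure D3:**
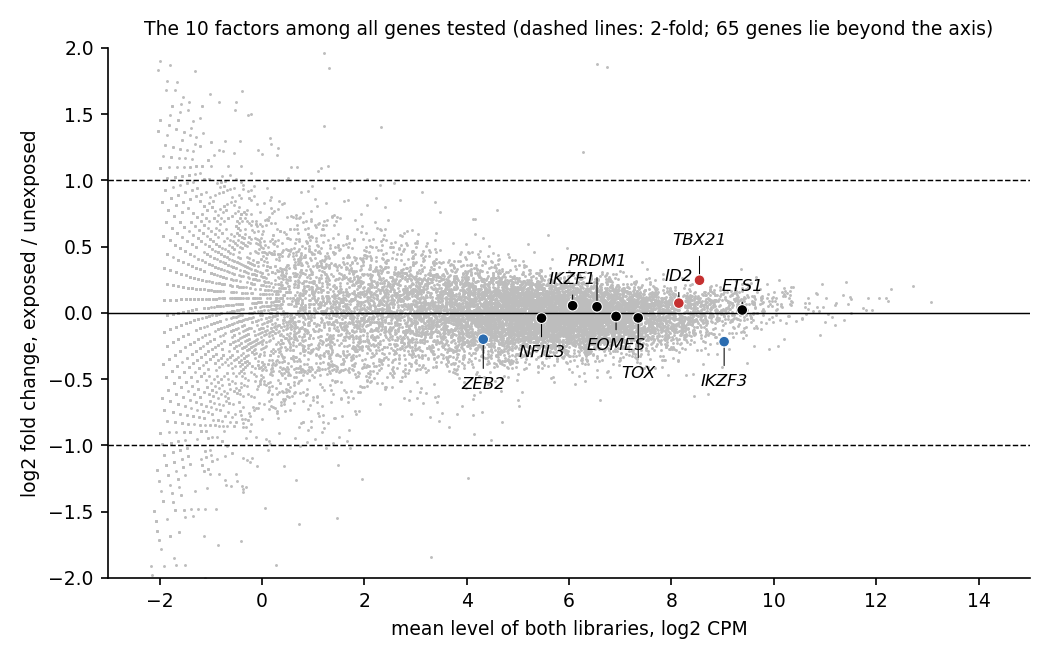
Log2 fold change (exposed over unexposed) against mean level (log2 CPM) for the 13665 tested genes in grey and the 10 factors in colour, red for an interval above 0, blue below 0 and black for one that holds 0; dashed lines mark 2-fold, and 65 genes lie beyond the vertical axis. The factors lie within the cloud of genes of their level except TBX21, which is at its upper edge.

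The plot of changes against level places the factors other than ZEB2 among the better expressed genes, where fold changes of all genes are small. ZEB2 lay lower, among genes with a wider central range of -0.39 to 0.36. No exon of the 10 genes was found to be shared with another gene on the same strand. On the other strand, ID2-AS1, which overlaps ID2, had 0 and 13 counts, and ZEB2-AS1 had 0 in both libraries. Further genes overlap IKZF1, TOX and ZEB2 on that strand, and no counts were found for them.

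Beyond the set, 31 of 36 other transcription factors of NK and innate lymphoid cells (ILC) were tested. By the counting interval 8 were higher, 11 were lower and 12 held 0, with a median of -0.0095 and 0 past 2-fold, where 21.8% of all tested genes were higher and 23.9% lower. TCF7, LEF1, ZBTB16 and SPI1 had 0 counts in both libraries, which allows up to 3 counts each. The factors of highest level were CBFB, the partner subunit of RUNX proteins (218 and 200 TPM, log2 fold change -0.074, -0.11 to -0.039), BHLHE40 (180 and 173 TPM, -0.0095, -0.047 to 0.028) and IRF1, an interferon regulatory factor (120 and 134 TPM, 0.20, 0.16 to 0.24). Farthest from 0 by the interval were RUNX2, with 144 and 72 counts (-0.87, -1.31 to -0.47), FOXO1, with 73 and 119 counts (0.80, 0.39 to 1.26), and BATF, with 1804 and 2032 counts (0.29, 0.20 to 0.38). FOXO1 shares exons with a gene at 0 counts. After removal of the fit CBFB was at -0.091 (-0.13 to -0.056) and BATF at 0.18 (0.087 to 0.27). With the longest transcripts the interval of CBFB held 0 (-0.015, -0.050 to 0.020) and BATF was at 0.11 (0.018 to 0.20). IRF1 was at 0.11 and 0.17 in these fits. Higher and lower genes were thus mixed in this list.

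Of 22 family relatives of the 10 factors, 17 were tested, of which 1 was higher and 8 were lower, where 21.8% and 23.9% of all tested genes were. The difference from all genes was not tested. They had a median of -0.12 and of -0.072 after removal of the fit. Those lower were IKZF2, IKZF4, IKZF5, TOX2, ETS2, PRDM10, ZEB1 and ID1, of which ID1 passed 2-fold with only 20 and 7 counts. ID3, an inhibitor of E proteins like ID2, had 53 and 54 TPM (0.071, -0.055 to 0.20). TEF, a relative of NFIL3, was the gene that was higher before the fit, with 284 and 404 counts (0.62, 0.40 to 0.85). After removal of the fit FLI1, a relative of ETS1, also lay above 0 (0.12, 0.054 to 0.18). With the longest transcripts FLI1 (0.083, 0.020 to 0.15) and PRDM2 (0.0825, 0.027 to 0.14) did so. Of the lower genes, IKZF5 lost its call in both fits, as given above. PRDM10 had 1317 and 941 counts (-0.37, -0.49 to -0.25), and TOX2 8517 and 7202 (-0.12, -0.17 to -0.080). ID4, HLF, TOX3 and ERG had 0 counts in both libraries, and TBR1, the third T-box gene of this subfamily, had 4 and 14 counts and shares exons with a gene of many reads.

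Genes were also listed for proteins that work with the factors, such as the NuRD and Sin3 repressor complexes used by Ikaros proteins and the E proteins bound by ID2. Of 21, 20 were tested, with 6 higher, 2 lower (TCF12 and KDM1A) and a median of 0.0056, beside 21.8% higher and 23.9% lower among all tested genes. HDAC1, a histone deacetylase, had 331 and 322 TPM (0.011, -0.023 to 0.044). RBBP7 had 244 and 248 TPM (0.080, 0.042 to 0.12), and MTA2 had 221 and 230 TPM (0.11, 0.075 to 0.14). The corepressor gene CTBP1 had 6229 and 6577 counts (0.20, 0.15 to 0.25), and MBD3, which shares exons with another gene, had 5315 and 5518 (0.17, 0.12 to 0.23). Once the fit was removed, CTBP1 was at 0.066 (0.016 to 0.12) and MBD3 at 0.022 (-0.033 to 0.077), and with the longest transcripts CTBP1 was at 0.12 (0.073 to 0.17) and MBD3 at 0.10 (0.047 to 0.16). With the fit removed the median of the list was -0.011, EHMT2, higher before it, held 0, and CHD4 lay above 0. TCF3, CHD3, MTA1, GATAD2A, SIN3A and SIN3B then lay below 0, beside TCF12 and KDM1A. With the longest transcripts only TCF3, MTA1 and KDM1A lay below 0, and EHMT2 again held 0. CHD4, HDAC2, RBBP4, GATAD2B and SIN3A lay above 0 there. SIN3A thus turned between the fits, so no direction is given for it. Its median and longest transcripts have 590 and 6737 bases. Without the antibody SIN3A had more counts than EOMES (6454 against 5712) but a lower TPM (46 against 84). The length behind its TPM was therefore greater than that of EOMES, whose median is 2829 bases, so the median length of SIN3A is too short for it. CTBP2 had 1 and 0 counts and was not tested.

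Of 14 target genes of T-bet and Eomes, 13 were tested, with 7 higher and 2 lower, beside 21.8% and 23.9% of all tested genes. Their median was 0.15, which became 0.024 after removal of the fit. NKG7 had 3215 and 3445 TPM (0.16, 0.14 to 0.17), and GZMB, encoding granzyme B, had 1850 and 2149 TPM (0.27, 0.25 to 0.29). The chemokine gene CCL5 had 991 and 1072 TPM (0.17, 0.14 to 0.19), and the chemokine receptor gene CX3CR1 had 384 and 476 counts (0.42, 0.23 to 0.62). PRF1, GNLY and IL2RB were the other higher genes. The lower genes were KLRG1, an inhibitory receptor of mature NK cells, with 302 and 186 counts (-0.58, -0.85 to -0.31), and FASLG (-0.088, -0.14 to -0.032). After removal of the fit, GZMB was at 0.21, CCL5 at 0.12 and NKG7 at 0.024, with the longest transcripts at 0.15, 0.068 and -0.021, so that no direction is given for NKG7. IL2RB was then at -0.019, and with the longest transcripts at 0.056, so none is given for it either. The median and longest transcripts of IL2RB differ much in length, with 623.5 and 4113 bases. GNLY was at 0.11, and with the longest transcripts its interval held 0 (0.050, -0.018 to 0.12). CXCR3, whose interval held 0 before the fit (-0.048, -0.10 to 0.0068), lay below 0 in both fits (-0.16 and -0.19). IFNG, the interferon-γ gene that T-bet activates, had 1534 and 1317 counts (-0.10, -0.21 to 0.0042). S1PR5, a further target, had 0 counts in both libraries. Whether the level of TBX21 bears on these genes was not tested.

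**Figure D4:**
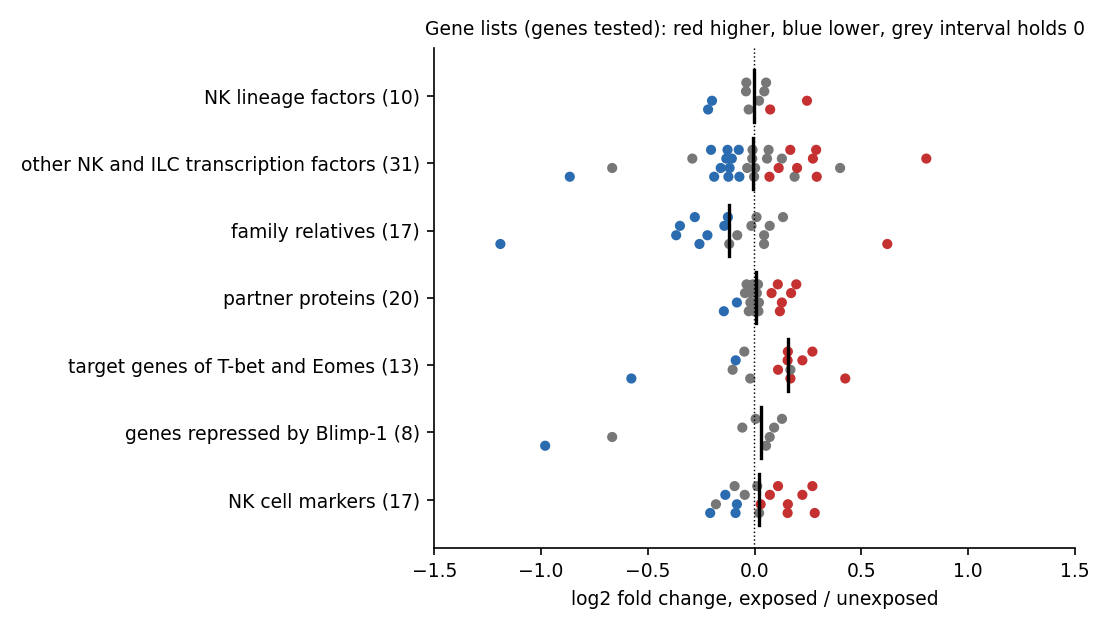
Log2 fold change (exposed over unexposed) of each tested gene in 7 gene lists, with the number tested in brackets, red for an interval above 0, blue below 0 and grey for one that holds 0; black bars are list medians and the dotted line is the median of all tested genes. The family relatives have a median of -0.12 and the target genes of T-bet and Eomes a median of 0.15.

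Of 10 genes that Blimp-1 represses in lymphocytes, 8 were tested, with 0 higher, 1 lower and a median of 0.029, next to 21.8% higher and 23.9% lower among all tested genes. PAX5, a B cell factor, was the lower one, with 169 and 78 counts (-0.98, -1.40 to -0.60). ID3, CIITA and CCR7, the highest in level, had intervals that held 0, and CIITA shares exons with another gene. IL2 and TCF7 had 0 counts in both libraries. After the fit was removed the median of the list was -0.068. CIITA then lay below 0 (-0.13, -0.21 to -0.043), but with the longest transcripts its interval held 0 (0.027, -0.055 to 0.11).

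The label of the cells was checked against marker genes, and the NK markers were abundant in sum but uneven in level. The numbers of higher and lower markers below stand beside 21.8% and 23.9% of all tested genes. Of 18 NK cell markers, 17 were tested, 8 were higher and 4 lower, with a median of 0.021. Among the higher ones, NKG7, GNLY, PRF1, GZMB and IL2RB are also on the list of T-bet and Eomes targets, so these rises are not a separate result. The summed level of the NK markers was 8661 TPM without and 9203 TPM with PPMX-T003, led by NKG7. Most of this sum came from genes of the cytotoxic granule, such as NKG7 (3215 and 3445 TPM), GZMB (1850 and 2149) and GZMA (1284 and 1261). Of the receptor genes, NCR3 had 393 and 396 TPM and KLRC1 202 and 182. KLRK1 had only 17 and 16 TPM and KLRD1 8 and 7, and CD226 had 47 and 38 counts. CD7 had 12 and 14 TPM. NCAM1, encoding CD56, had 89 and 82 TPM, while FCGR3A, encoding CD16, had 16 and 15 counts and KLRF1 had 3 and 0. After removal of the fit the median of the NK markers was 0.012, and KLRC1, CD2, NCR3 and CD7 held 0. With the longest transcripts KLRC1, NCR1, NCR3, CD2 and NKG7 lay below 0, NCAM1, GZMA and CD7 held 0, and KLRD1 lay above 0. How many NK markers were higher or lower thus depended on the fit. Of 12 T cell markers 6 were tested, 3 higher and 2 lower, with a median of 0.015 and a sum of 1369 and 1479 TPM, led by CD3E at 673 and 698 TPM, a gene that NK cells transcribe as well. The T cell markers CD3D, CD3G, CD8A, CD8B and CD5 had 0 counts in both libraries, while TRAC (75 and 69 TPM), CD28 (21 and 18 TPM) and CD6 (9 and 7 TPM) were expressed. Of 7 B cell markers 2 were tested (sum 2 and 1 TPM, median -0.54), 0 higher and 1 lower (PAX5), with MS4A1, CD22 and EBF1 at 0. Of 8 myeloid markers 6 were tested (sum 420 and 413 TPM, median -0.046), 1 higher and 1 lower, led by S100A9 at 393 and 388 TPM, while CD14 had 0 and 7 counts and LYZ 2 and 0. CSF1R passed 2-fold lower with 22 and 9 counts, and its interval held 0. In both fits CSF1R lay below 0 (-2.59 to -0.11 and, with the longest transcripts, -2.53 to -0.050). S100A9 did so as well (-0.13 to -0.0077 and -0.21 to -0.089). Of 7 markers of helper ILC 1 was tested, IL1R1, with 20 and 22 counts, 0 were higher or lower, the log2 fold change was 0.23, and IL7R, PTGDR2 and IL23R were at 0. Apart from CD3E, the sum of the T cell markers came mainly from the receptor constant genes TRBC1 (330 and 385 TPM) and TRBC2 (261 and 302 TPM).

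For scale, TFRC, which encodes the target of the antibody, had 184 TPM in both libraries and a log2 fold change of 0.052 (0.023 to 0.081). The housekeeping genes ACTB (0.20, 0.19 to 0.21) and GAPDH (0.13, 0.12 to 0.14) were higher by the counting interval. After removal of the fit TFRC was at 0.17, ACTB at 0.051 and GAPDH at 0.057. The longest transcripts gave 0.14, 0.10 and 0.012 for these genes.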

How the data were processed

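RNA of NK92 cells was sequenced in 1 unexposed and 1 exposed library, grouped by the treatment label. According to the submitters' processing notes, the authors used Trimmomatic 0.38, HISAT2 2.2.0, StringTie 2.1.3b and edgeR 3.17 with build hg38. The authors deposited a whole-number count per gene and library, not scaled between libraries, and FPKM and TPM rounded to whole numbers, which were treated as a score. Commas inside the deposited counts were removed, and the counts were recorded under a general unit. StringTie derives counts from transcript coverage, so reads of overlapping genes are divided by an estimate, and counting by strand and the read layout are not given in the sources used here. The members and lists were chosen with earlier results of these data known.

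Counts were scaled by the trimmed mean of M-values (trimming 30% of log ratios, and 5% by mean level) and turned into log2 CPM with a prior count of 2. Python 3.11.15, scipy 1.17.1, pandas 2.3.3 and numpy 2.4.6 were used. The 95% Clopper-Pearson interval was computed for the share of each gene's reads that fell in the exposed library, and the Woolf interval on ratios of counts. Both cover counting error only and take reads as independent. Reads are not independent molecules, so both may be too narrow even for counting error. Genes with at least 20 counts over both libraries were tested, 46766416 and 43178462 counts being the depths, and 3 counts or fewer in a library were read as no detection. Changes were set beside the central 95% range of the tenth of tested genes of like mean level. GC content and length of transcripts came from GENCODE release 29 (the counts rest on another annotation) and covered 91.8% of tested genes, and a robust regression on both (statsmodels 0.14.6) used genes of 200 counts or more. Upstream windows and positions came from RefSeq on GRCh38.p14, the patch of the files' build. The scaling and the Clopper-Pearson interval were tested on simulated libraries that held counting error only. That test had no GC or length trend and no variation between cultures, so it does not check the fits or the intervals beyond counting error. In the lists of transcription factors, relatives, partners and targets, the 3 genes of highest TPM and the 3 with at least 100 counts and the interval farthest from 0 were named, with every defining marker, TFRC, ACTB and GAPDH. Other genes of small groups were named after their values were seen. The values of some listed marker and factor genes are not reported here. The alternatives were other scalings, prior counts, count filters, TPM, a 1.5-fold threshold and both fits.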

Additional observations from a re-analysis of the deposited data

How the results depend on the processing

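No paired analysis was possible because there is 1 library for each condition, which also leaves no replicate to omit. Of 132 values under the alternatives, 112 stayed within counting error of the value reported, or within 1.5-fold of a reported number of genes, 20 moved and 0 reversed a direction that the interval gave. The 20 came from TPM and the fits. Scaling still changed calls near 0: 3 factors were lower with median-of-ratios scaling, TOX (-0.048) being the added one, and 3 were higher with upper-quartile scaling, ETS1 (0.033) being the added one. At 1.5-fold 0 factors passed. With counts divided by 2 for the interval, chosen after seeing the data because the read layout is not given, 2 factors were again higher and 2 lower.

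With TPM, where changes differed from those of counts by a median of -0.054, TBX21 was at 0.19, EOMES at -0.088, ID2 at 0.018, TOX at -0.096 and ETS1 at -0.031. TPM gives no counting interval and so no number of factors outside 0. With the fit on GC content and length removed, TBX21 was at 0.17, ID2 at 0.030, TOX at 0.074 and ETS1 at 0.094, the median of the factors was 0.052, and 5 were higher and 1 lower. With the longest transcripts in that fit, TBX21 was at 0.14, ID2 at 0.0020, TOX at 0.036, IKZF3 at -0.12, ETS1 at 0.10 and ZEB2 at -0.046, with 4 higher and 1 lower. The cause was not tested. Depth limits ZEB2 most, whose interval is the widest of the 10 factors, and differences between plates are not covered by any interval.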
